A study of Mus with 6 samples.

Results

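Fkbp5, Tsc22d3, Sgk1, Zbtb16, Hif3a and Arrdc2 are 6 genes whose transcription is widely known to respond to glucocorticoids, and their RNA levels were followed here in lens epithelial cells (LECs) of the mouse at 0 h and 6 h after removal of the lens fiber cells. They are 6 of the 55421 genes counted in every library. They were picked by name, with their difference between 0 h and 6 h post cataract surgery (PCS) already known, as a set in which some members were lower and others higher at 6 h PCS. The read counts at the 2 time points are therefore the values that chose them, and their differences between the time points are given as a description without a test. All 6 passed the filter on low counts, which 16810 genes passed, and the choice of the genes had no numerical threshold.

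Both groups were wild type C57BL/6 mice labelled as 2 months old, while the methods of the study give an older range of ages. LECs were sequenced while attached to their lens capsule, either at 0 h PCS or at 6 h PCS, with 3 libraries per time point and a pool of 5 capsules per library. Surgery removed the fiber cells through an incision at the front of the eye and left the capsule in place. It was done on the first eye of a mouse, then on the second eye 6 h later, and the mouse was killed at that point, so that a 0 h capsule came from an animal whose other eye had been operated on 6 h before. Which pools had mice in common is not given in the labels, so the spread between libraries is the spread between pools that may not be independent across the time points. No label names a glucocorticoid, another drug or an altered allele in either group.

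Glucocorticoids such as corticosterone enter cells and bind the glucocorticoid receptor, which moves to the nucleus and raises the transcription of target genes that carry its response elements. Many of these targets, among them chaperones of the receptor itself, kinases, and repressors of growth and inflammation, are used as readouts of hormone action in tissues. Many are also driven by other signals, including growth factors, cytokines, fasting and osmotic stress, so that a level of 1 such RNA is not a measure of the hormone. Corticosteroids are given to the eye after cataract surgery against inflammation, and lens epithelial cells carry the receptor.

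The 0 h libraries held 20253239 to 24701039 read pairs on genes and the 6 h libraries 18039974 to 22496116. Of the LEC markers Foxe3, Pax6, Sox2 and Epha2, each was at 31.4 CPM or more in every library, and their summed level was 677 to 874 CPM in the 0 h and 620 to 795 CPM in the 6 h libraries, where CPM (read pairs per 1e+06 on genes) are normalized by TMM. Most of this sum was Pax6, at 572 ± 90.1 and 402 ± 104 CPM, and its members moved apart, since Epha2 was 2.32-fold higher at 6 h PCS (edgeR adjusted p = 0.0134) and Sox2 lower with a log2 fold change of −0.70 (edgeR adjusted p = 0.0151). Of the markers of other cells, the erythrocyte, corneal and endothelial sums did not overlap between the time points, and the pigment, leukocyte and stromal sums did. Pecam1 and Cdh5 of the endothelium summed to 0.603 to 1.55 CPM in the 0 h and 2.78 to 9.50 CPM in the 6 h libraries. Neither gene passed the FDR limit (edgeR adjusted p = 0.0644 and 0.0529). The 4 globin genes of erythrocytes summed to 6.42 to 17.4 CPM in the 0 h and 62.5 to 113 CPM in the 6 h libraries, and Krt12 and Krt5 of the corneal epithelium to 0.764 to 14.7 CPM and 69.0 to 104 CPM. Tyr, Tyrp1 and Pmel of pigment cells summed to 23.3 to 99.1 CPM and 27.0 to 799 CPM, and Ptprc, Itgam, Cd68 and Lyz2 of leukocytes to 6.08 to 11.6 CPM and 9.25 to 21.5 CPM. Within the leukocyte list Cd68 was 5.84-fold higher at 6 h PCS (1.02 and 5.98 CPM, edgeR adjusted p = 0.0129), while Lyz2 was at 6.52 and 5.84 CPM. All 4 globin genes rose, whereas the corneal and pigment genes did not pass the FDR limit (edgeR adjusted p = 0.0792 to 0.434). No marker named here was at 0 counts in a library. The part of these cells in the levels given below was not tested, and in such bulk samples fewer cells of a type and less RNA per cell cannot be told apart.

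Of the 6 genes, 5 were lower and 1 was higher at 6 h PCS, and in each case the 3 libraries of one time point lay entirely on one side of the 3 of the other. Over all tested genes, 15.3% were separated in this way with the lower values at 6 h PCS and likewise 15.3% with the higher values. Because this contrast chose the 6 genes, nothing is read from this count.

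**Figure D1:**
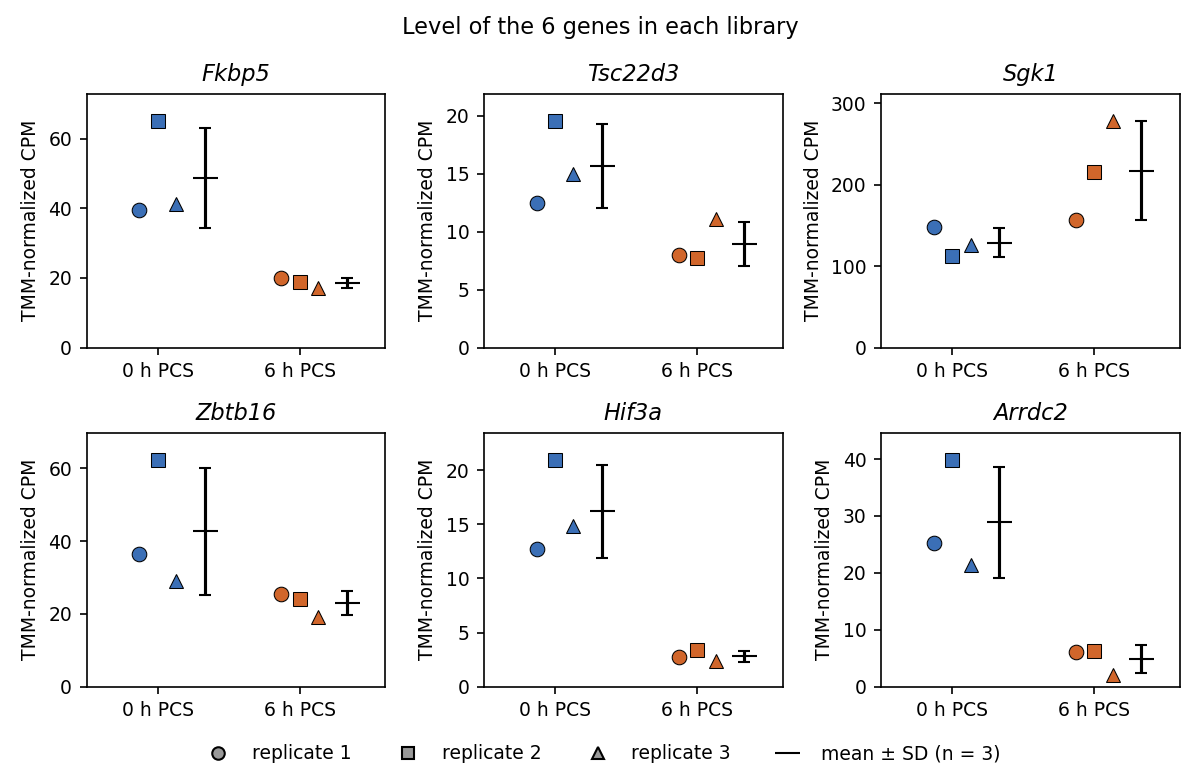
TMM-normalized CPM (linear axis from 0) of the 6 genes in each of the 3 libraries at 0 h PCS (blue) and at 6 h PCS (orange), with the mean and SD of each group. The 0 h and 6 h libraries do not overlap for any of the genes, Sgk1 alone lies higher at 6 h PCS, and replicate 2 is the highest 0 h library for the other 5.

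Hif3a and Arrdc2 differed between the time points by more than the other 4 genes. Hif3a (chr7:17030993-17062427, GRCm38) encodes HIF-3α, a relative of the oxygen-regulated HIF-1α whose short forms can restrain HIF signalling. Its level was 12.8, 21.0 and 14.8 CPM in the 0 h replicates 1, 2 and 3, and 2.75, 3.37 and 2.35 CPM in the 6 h replicates. The highest 6 h library thus lay far below the lowest 0 h library, and the spread among the 6 h libraries was small on the scale of the gap. The means were 16.2 ± 4.26 CPM in the 0 h and 2.82 ± 0.515 CPM in the 6 h libraries (SD, n = 3). The fitted log2 fold change was −2.51 (standard error 0.28), which is a 5.71-fold lower level. This value rests on 297 to 576 read pairs per 0 h library and on 39 to 75 per 6 h library.

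Arrdc2 (chr8:70835129-70839720) encodes an α-arrestin, a class of adaptor proteins that recruit ubiquitin ligases to membrane proteins. Its 0 h replicates were at 25.3, 39.9 and 21.4 CPM and its 6 h replicates at 6.17, 6.29 and 2.05 CPM. All 6 h libraries were below all 0 h libraries, but 6 h replicate 3 was well below the other two. It held 34 read pairs, and its 95% exact Poisson interval of 1.42 to 2.86 CPM, which covers counting error only, did not reach the 4.97 to 7.56 CPM of replicate 1. The means were 28.9 ± 9.75 CPM for the 0 h and 4.83 ± 2.41 CPM for the 6 h libraries, a log2 fold change of −2.57 (standard error 0.43). Without that library the log2 fold change was −2.21.

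Fkbp5 (chr17:28398753-28486149) encodes FKBP51, a co-chaperone that holds the glucocorticoid receptor in a state of low hormone affinity and is itself induced by the receptor. Its level was 39.5, 65.1 and 41.1 CPM in the 0 h replicates and 20.0, 18.8 and 17.0 CPM in the 6 h replicates. The 6 h libraries lay close together and the 0 h libraries did not, with replicate 2 standing above the others. The mean went from 48.6 ± 14.4 CPM at 0 h PCS to 18.6 ± 1.52 CPM after 6 h, a level 2.61-fold lower (log2 fold change −1.38, standard error 0.21).

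Zbtb16 and Tsc22d3 were lower at 6 h PCS by less. Zbtb16 (chr9:48651797-48836225) encodes PLZF, a zinc finger repressor that is a common marker of glucocorticoid and progestin exposure. It was at 36.6, 62.4 and 29.1 CPM in the 0 h replicates and 25.5, 24.2 and 19.3 CPM in the 6 h replicates. The 0 h replicate 3 was near the highest 6 h library, and only replicate 2 was far above. The group means were 42.7 ± 17.5 and 23.0 ± 3.31 CPM (log2 fold change −0.89, standard error 0.27). This value rested on 0 h replicate 2, since without it the log2 fold change was −0.52.

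Tsc22d3 (chrX:140539528-140600522) encodes GILZ, a leucine zipper protein that mediates part of the anti-inflammatory action of glucocorticoids. Its 0 h replicates were at 12.5, 19.6 and 14.95 CPM and its 6 h replicates at 7.98, 7.72 and 11.1 CPM. The lowest 0 h library and the highest 6 h library were close to each other, and their 95% Poisson intervals of 11.1 to 14.0 CPM and 9.58 to 12.9 CPM overlapped. The group means were 15.7 ± 3.59 and 8.94 ± 1.90 CPM, a log2 fold change of −0.81 (standard error 0.25).

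Sgk1 (chr10:21882184-21999903), a kinase of the AGC family that acts on ion channels and transporters and answers to growth factors and cell volume as well as to corticosteroids, was the exception in direction. The 0 h replicates were at 148, 113 and 125 CPM and the 6 h replicates at 157, 216 and 278 CPM. The 6 h replicate 1 was barely above the highest 0 h library, whereas the other two were well above. The group means were 129 ± 17.8 and 217 ± 60.8 CPM (log2 fold change 0.75, standard error 0.21). Scaled on library size alone, the groups of Sgk1 overlapped while those of the other 5 genes did not, an alternative that was added after the data were seen. The pigment cell gene Pmel was at 10.1, 68.2 and 335 CPM in the same 6 h replicates, the same order of libraries as for Sgk1. The leukocyte sum was in this order too, at 9.25, 14.3 and 21.5 CPM, with Cd68 and Lyz2 following it and Ptprc and Itgam not. Of the genes listed as stromal, Col1a1 was at 3.96, 37.7 and 116 CPM in the same order, whereas Dcn (2.28, 0.404 and 2.65 CPM) and Pdgfra (122, 143 and 116 CPM) did not follow it. Pdgfra was far above Dcn in level, and whether its RNA came from stroma was not tested. The part of these genes' cells in the level of Sgk1 was not tested either. In the 0 h replicates Pmel was at 38.1, 7.82 and 7.67 CPM and the leukocyte sum at 11.6, 8.73 and 6.08 CPM. Replicate 1 was the highest for each of them and for Sgk1.

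Levels of different genes were compared per exon length as FPKM on total gene counts, which could be computed for 4 of the 6 genes. At 0 h PCS the order was Sgk1 with 29.3 ± 3.68 FPKM, Arrdc2 with 9.95 ± 3.31 FPKM, Fkbp5 with 5.73 ± 1.68 FPKM and Hif3a with 2.69 ± 0.714 FPKM (SD, n = 3). Each of the 3 libraries kept that order. At 6 h PCS Sgk1 was at 39.9 ± 12.1 FPKM, Fkbp5 at 1.76 ± 0.193 FPKM, Arrdc2 at 1.35 ± 0.712 FPKM and Hif3a at 0.381 ± 0.102 FPKM. Arrdc2 and Fkbp5 thus changed places in the order of means, but at 6 h PCS they differed by less than their spread, with Arrdc2 at 1.58, 1.93 and 0.555 FPKM and Fkbp5 at 1.75, 1.96 and 1.58 FPKM.

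A ratio of 2 genes within a library does not depend on how the libraries are scaled, and 3 such ratios of FPKM were formed after the data were seen. Sgk1 over Fkbp5 was 7.23, 3.34 and 5.89 in the 0 h replicates and 15.1, 22.2 and 31.6 in the 6 h replicates. Every 6 h library was above every 0 h library, which had to follow from the separated levels of Sgk1 and Fkbp5 in opposite directions. Fkbp5 over Hif3a was 2.19, 2.20 and 1.97 at 0 h PCS, nearly equal in the 3 libraries although the levels of both genes differed among them, and 5.17, 3.95 and 5.14 at 6 h PCS. Arrdc2 over Hif3a was 4.12, 3.95 and 2.99 at 0 h PCS and 4.66, 3.88 and 1.81 at 6 h PCS, where the ranges overlapped. Hif3a was thus lower at 6 h PCS by more than Fkbp5, while for Arrdc2 and Hif3a no such difference was seen beyond the spread of the libraries. These ratios come from the values that chose the genes and are a description.

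The 5 genes that were lower at 6 h PCS shared a second feature, which was noticed in the data and concerns the 0 h libraries alone. In each of them 0 h replicate 2 was the highest of the 3 libraries, while for Sgk1 it was the lowest. Over all tested genes replicate 2 was the highest in 33.7% and the lowest in 37.8%. Against the mean of replicates 1 and 3 on the log2 scale, replicate 2 was higher by 0.93 for Zbtb16, 0.78 for Arrdc2, 0.69 for Fkbp5, 0.60 for Hif3a and 0.52 for Tsc22d3, and it was −0.27 for Sgk1. Over all tested genes the median of this difference was −0.01. A difference at least as far above 0 was held by 8.86% of genes for Zbtb16, 12.2% for Fkbp5 and 16.2% for Tsc22d3. These shares count genes that deviated upwards only, and single genes did not stand far out.

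A high 0 h library also enters the contrast by which the genes were chosen, so that this shared order is not independent of the choice. Without 0 h replicate 2 the log2 fold changes were −2.29 for Hif3a, −2.27 for Arrdc2, −1.12 for Fkbp5, −0.62 for Tsc22d3, −0.52 for Zbtb16 and 0.66 for Sgk1, and no direction was turned. This library had the most read pairs on genes (24701039). Among the 0 h libraries it had the lowest sums of the corneal (0.764 CPM), lens epithelium (677 CPM) and stromal markers (192 CPM). The pigment, leukocyte, endothelial and erythrocyte sums were not lowest in it. The part of these features in the order was not tested.

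**Figure D2:**
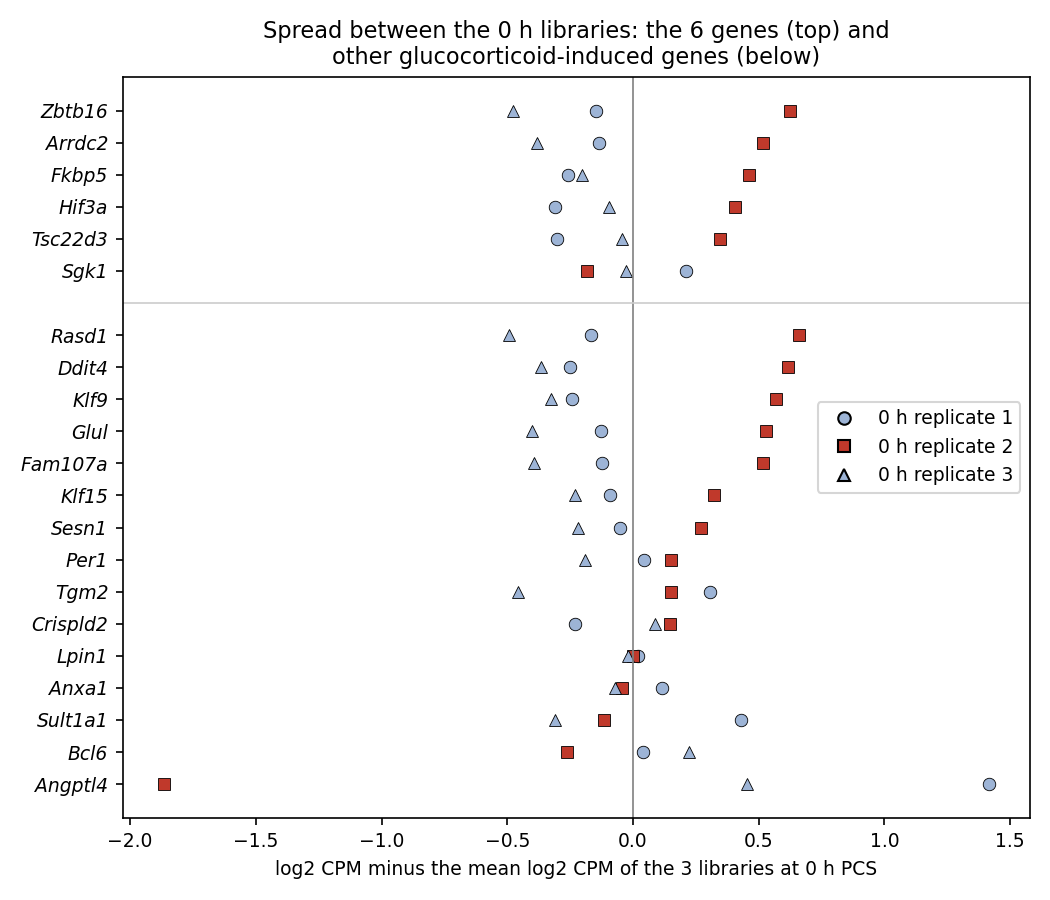
Log2 CPM of the 3 libraries at 0 h PCS, each centred on the mean of the 3, for the 6 genes (top) and for 15 other glucocorticoid-induced genes (below), with replicate 2 as red squares. Replicate 2 is the highest library for 5 of the 6 genes at the top and for 9 of the 15 below, and Angptl4 is far lower in it.

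Other genes known to be induced by glucocorticoids were taken from a list of 29, of which 25 could be matched to a gene and 24 were tested. A differentially expressed gene (DEG) was one with a change of more than 2-fold and an FDR no larger than 0.05 in edgeR's quasi-likelihood test. Of all tested genes 4.53% were DEGs with higher levels at 6 h PCS (762 genes) and 0.821% with lower levels (138 genes), a balance that turned with scaling on library size alone, which gave 572 higher and 627 lower. The lower count was also 43 without 0 h replicate 1 and 53 without 0 h replicate 3. Matched names lean towards changed genes, because they come from tables sorted by p-value, and of the 6372 tested genes with a name 11.6% were higher and 2.10% lower DEGs. Among the 24 genes 12 rose, 2 fell and 10 were not DEGs, and their median log2 fold change was 1.26, beside a median of −0.003 over all tested genes and 0.19 over those with a name. The list held 2 kinds of genes. This list, its split and the lists below were chosen with earlier results of these data known, so their counts are a description. The study had already reported Zfp36 and other immediate early genes as induced at 6 h PCS.

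Of the 9 tested genes that are also known as immediate early or cytokine-induced, 8 rose and none fell, with a median log2 fold change of 2.22. Zfp36, which encodes a protein that destabilizes cytokine mRNAs, rose by 3.87 on the log2 scale (standard error 0.48, adjusted p = 0.00697 by Benjamini-Hochberg in edgeR's quasi-likelihood test). The metallothioneins Mt2 and Mt1, which bind metal ions, rose by 3.39 and 3.30, and the transcription factor gene Cebpd by 3.04. Errfi1, a feedback inhibitor of the EGF receptor, rose by 2.22, the MAP kinase phosphatase gene Dusp1 by 2.13, the NF-κB inhibitor gene Nfkbia by 1.84 and Rgs2, a regulator of G protein signalling, by 1.19. Lcn2 had a log2 fold change of 1.89 and was not a DEG (adjusted p = 0.105 in the same edgeR test), and Il1r2 was not tested. Mt1 was no DEG without 0 h replicate 1, 2 or 3 or without 6 h replicate 2 (log2 fold changes of 3.16 to 3.42, edgeR adjusted p = 0.0778 to 0.106). Rgs2 was none without 0 h replicate 1 or 3 or 6 h replicate 1 or 3 (0.99 to 1.20, edgeR adjusted p = 0.0514 to 0.119). These 8 genes moved in the opposite direction to Hif3a, Arrdc2 and Fkbp5 at the same time point.

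Of the 15 other tested genes 4 rose, 2 fell and 9 were not DEGs, with a median log2 fold change of 0.41. Klf15, a transcription factor of metabolic genes in fasting, was at 31.2, 41.7 and 28.4 CPM in the 0 h replicates and 11.8, 7.27 and 5.23 CPM in the 6 h replicates, with every 6 h library below every 0 h library. It fell by 2.06 on the log2 scale (standard error 0.30, edgeR adjusted p = 0.00289). Ddit4, an inhibitor of mTORC1 that also responds to hypoxia and stress, was at 26.2, 47.7 and 24.2 CPM and then 15.1, 12.03 and 6.50 CPM, and it fell by 1.55 (standard error 0.36, adjusted p = 0.0336 in the same test).

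The 4 that rose were Crispld2, a secreted protein gene (log2 fold change 3.00), Rasd1, a small GTPase gene (1.71), Tgm2, which encodes a transglutaminase (1.29), and the transcription factor gene Klf9 (1.23), with edgeR adjusted p-values of 0.000411, 0.0353, 0.0302 and 0.0374. Crispld2 and Klf15 kept their calls in each of the 6 fits that left out a library. Ddit4 lost its call without 0 h replicate 1 or 2 or 6 h replicate 2 or 3 (log2 fold changes of −1.69 to −1.17, edgeR adjusted p = 0.0522 to 0.0870). Rasd1 and Klf9 lost theirs without 0 h replicate 1 or 3 or 6 h replicate 2 or 3, at 1.45 to 1.67 and 1.06 to 1.14 (edgeR adjusted p = 0.0999 to 0.145). Tgm2 lost its call without any of the libraries but 6 h replicate 1, at 1.09 to 1.44 (edgeR adjusted p = 0.0623 to 0.109). Among these 15 genes 0 h replicate 2 was the highest 0 h library in 9, and among the 9 immediate early or cytokine-induced genes in 2, beside 33.7% of all tested genes, and the counts were not tested against each other.

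**Figure D3:**
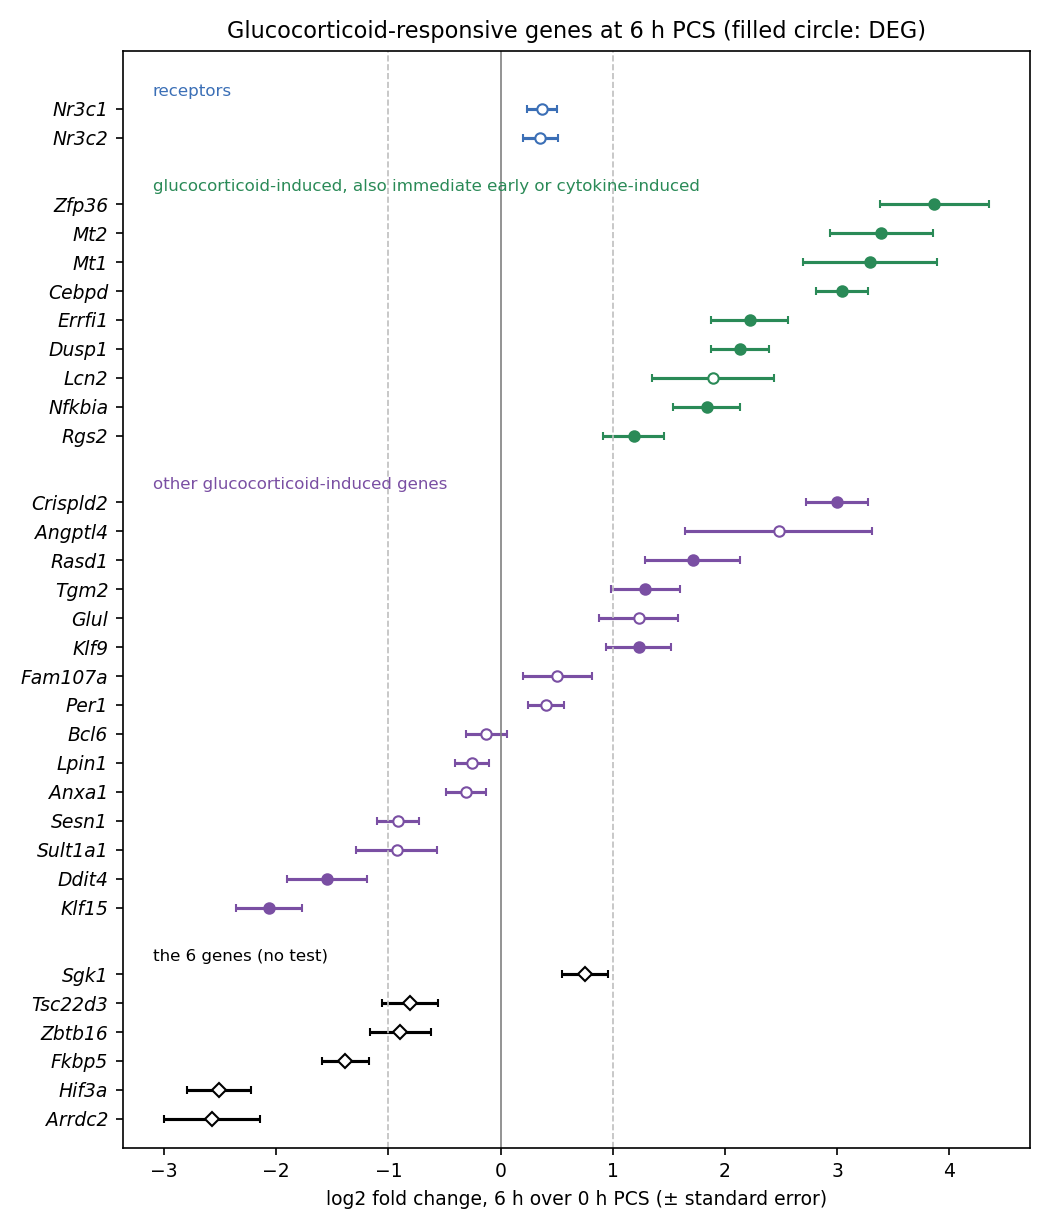
Log2 fold change (6 h over 0 h PCS, with its standard error) of the 6 genes (diamonds, no test), of other glucocorticoid-induced genes in 2 lists, and of the 2 receptors; filled circles are DEGs and dashed lines mark a fold change of 2. Immediate early or cytokine-induced genes lie to the right of 0, whereas the other list spans both sides from Klf15 (−2.06) to Crispld2 (3.00).

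The receptors that bind corticosteroids were expressed at both time points. Nr3c1, the gene of the glucocorticoid receptor, was at 54.1, 50.5 and 58.7 CPM in the 0 h replicates and 74.7, 69.7 and 66.6 CPM in the 6 h replicates. Its 6 h libraries were above its 0 h libraries, yet it was not a DEG (log2 fold change 0.37, standard error 0.13, adjusted p = 0.122 in edgeR's quasi-likelihood test). Nr3c2, the gene of the mineralocorticoid receptor, was at 24.0 to 26.5 CPM at 0 h PCS and 27.9 to 34.7 CPM at 6 h PCS (log2 fold change 0.36, edgeR adjusted p = 0.209). Scaled on library size alone, the groups of Nr3c1 and of Nr3c2 overlapped, and the log2 fold changes were 0.052 and 0.046, so their higher 6 h levels depended on the scaling. Hsd11b1 and Hsd11b2, whose enzymes activate and inactivate corticosterone, were not analysed here.

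Since Hif3a belongs to the HIF family, its relatives were examined at the same time points. Hif1a was at 863, 792 and 691 CPM in the 0 h replicates and 470, 696 and 630 CPM in the 6 h replicates, with overlapping groups (log2 fold change −0.39, standard error 0.17, edgeR adjusted p = 0.219). Arnt, which encodes the common partner of the α-subunits, was at 44.1 to 46.5 CPM and 66.8 to 93.6 CPM, and it passed the FDR limit but not the limit on fold change (0.77, edgeR adjusted p = 0.0141). Of the 5 tested genes for HIF subunits and oxygen sensors, out of a list of 9, none was a DEG. With 11.6% higher and 2.10% lower DEGs among tested genes with a name, a count of 0 in 5 is near the background.

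Of 10 tested hypoxia-induced genes, out of a list of 14, 4 rose, none fell and 6 were not DEGs, beside 11.6% higher and 2.10% lower DEGs among all tested genes with a name. Their median log2 fold change was 0.51, beside 0.19 over tested genes with a name. The peptide hormone gene Adm rose by 3.28, the glycolytic genes Hk2 and Pfkfb3 by 1.83 and 1.63, and the glucose transporter gene Slc2a1 by 1.04, with edgeR adjusted p-values of 0.00266, 0.000411, 0.0130 and 0.00487. The call of Pfkfb3 was lost without 6 h replicate 1 (1.52, edgeR adjusted p = 0.0737). That of Slc2a1 was lost without 0 h replicate 2 or 6 h replicate 1 or 3, where its log2 fold change was 0.96 to 0.99, below the limit. Hif3a, itself known to be induced by hypoxia in several tissues, had the opposite sign to these 4 genes.

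**Figure D4:**
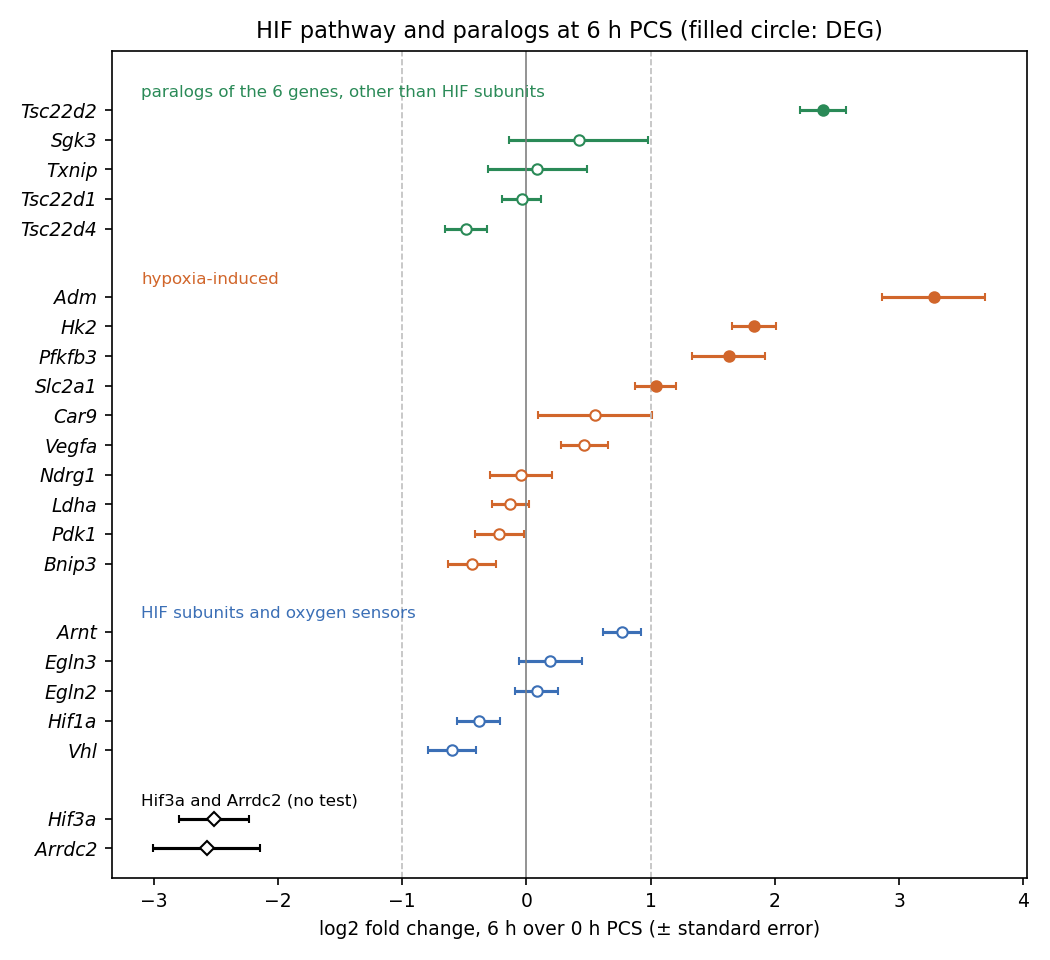
Log2 fold change (6 h over 0 h PCS, with its standard error) of Hif3a and Arrdc2 (diamonds, no test) beside HIF pathway genes and the paralogs of the 6 genes; filled circles are DEGs and dashed lines mark a fold change of 2. Hif3a and Arrdc2 lie below −2, Adm, Hk2, Pfkfb3 and Slc2a1 rose, and Tsc22d2 is the DEG among the paralogs.

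Among the paralogs of the 6 genes 1 rose. Tsc22d2, a relative of Tsc22d3, was at 190, 132 and 134 CPM in the 0 h replicates and 857, 696 and 825 CPM in the 6 h replicates, and it rose by 2.39 on the log2 scale (standard error 0.18, edgeR adjusted p = 0.000142) while Tsc22d3 was lower. Tsc22d1 and Tsc22d4 had log2 fold changes of −0.04 and −0.49 (edgeR adjusted p = 0.913 and 0.120), and Sgk3, a relative of Sgk1, 0.42 (edgeR adjusted p = 0.704). Txnip, the α-arrestin relative of Arrdc2 that binds thioredoxin, had 0.09 (edgeR adjusted p = 0.921). Its 0 h replicates were at 8.85, 24.7 and 9.01 CPM. Among the 6 tested paralogs 0 h replicate 2 was the highest 0 h library in 2 and the lowest in 2, near the shares over all tested genes. Of 13 paralogs 6 were matched and tested, and the count of 1 DEG among them is near the 11.6% of higher DEGs among tested genes with a name, while Arrdc1, Arrdc3, Arrdc4, Arrdc5, Sgk2, Fkbp4 and Epas1 were not analysed here. Of the ubiquitin ligases that α-arrestins recruit and the substrates of SGK1, 4 of 9 were tested and 0 were DEGs, a count likewise near the background, with Nedd4l at a log2 fold change of 0.87 (edgeR adjusted p = 0.0302, under the limit on fold change) and Ndrg1 at −0.05 (edgeR adjusted p = 0.936).

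The genes most like each of the 6 in their pattern were sought among named genes with a mean of at least 5 CPM, by the root mean square difference of log2 CPM centred over the 6 libraries. For Arrdc2 they were Klf15 (0.44), Hif3a (0.44) and Zfp120 (0.45), and for Hif3a they were Zfp120 (0.38), Klf15 (0.38) and Gpr157 (0.40). These were the nearest of 4377 candidate genes, and Klf15 belongs to the list of glucocorticoid-induced genes above. The neighbours of Fkbp5 were Zfp729a, Zfp358 and Zbtb5 (0.21 to 0.23), those of Zbtb16 were Acsl3, Zfp628 and Zic2 (0.19 to 0.21), and those of Tsc22d3 were Borcs7, Tmed1 and Klhl42 (0.12 to 0.16). Sgk1 was nearest to Rheb (0.07), Arf6 (0.07) and Fam107b (0.08). The likeness was measured over the same 6 libraries as the difference between the time points, and no test was made of it.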

How the data were processed

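RNA of LEC pools was sequenced as paired reads. The authors aligned them to the mouse genome (GRCm38.p6) with HISAT2 and counted read pairs per gene with HTSeq. The deposited values are these raw counts, 1 table per library, and the strand setting of the counting is not given in the sources used here. The 5 HTSeq summary rows of each table were left out of library sizes, which left 33.6% to 41.2% of read pairs on genes. Reads from genes that overlap another (Fkbp5, Sgk1 and Zbtb16 overlap non-coding, pseudogene or predicted RefSeq genes) may be affected.

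Groups were taken from the labels. Counts of the 6 libraries were compared with edgeR 4.0.16 in R 4.3.3 (TMM, filterByExpr, robust quasi-likelihood test, Benjamini-Hochberg over 16810 genes, no replicate block). A DEG had a change of more than 2-fold with an FDR no larger than 0.05, and the study's limits on FPKM were not applied. CPM used TMM-scaled library sizes (factors 0.827 to 1.15) and FPKM total gene counts. A prior count of 2 was used for the likeness of patterns. The script was tested on simulated data. Names (7023 genes) and exon lengths (2583 genes) came from supplementary tables of the study, whose fold changes and p-values, the authors' own comparisons, were not used, and coordinates from RefSeq.

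The 6 genes and all lists were chosen with earlier results of these data known. The genes named were the 6, Nr3c1, Nr3c2, Hsd11b1, Hsd11b2, the paralogs, in each other list up to 8 DEGs by size of change and, where fewer than 2 were DEGs, the 2 most abundant tested genes, the 3 genes most like each of the 6, and markers set beside a result. Lists were of receptor and handling genes, glucocorticoid-induced genes (immediate early or cytokine-induced, and others), HIF subunits and sensors, hypoxia-induced genes, paralogs, partners of α-arrestins and SGK1, and markers of lens epithelium, leukocytes, corneal epithelium, pigment cells, endothelium (0.603 to 1.55 and 2.78 to 9.50 CPM), erythrocytes and stroma (192 to 259 and 129 to 235 CPM, mostly Pdgfra at 212 and 127 CPM, with Col1a1 at 9.04 and 52.6 CPM and Dcn at 5.03 and 1.78 CPM). Alternatives were DESeq2 1.42.0, other edgeR tests, scalings and filters, a replicate block and leaving out each library. Results for some list and marker genes are not reported here. Promoter motifs were planned and not searched, since no sequence was at hand. Intervals cover counting error only, because the libraries hold no molecular identifiers.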

Additional observations from a re-analysis of the deposited data

How the results depend on the processing

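Of 90 log2 fold changes of the 6 genes under alternatives, 88 moved by no more than 1 SD between libraries of a group, a limit that let Zbtb16 go from −0.89 to −0.52 without 0 h replicate 2, and none changed direction. Of 75 counts of DEGs 71 stayed within 1.5 times, and 7 of 8 FPKM values within 1 SD. Scaling on library size alone, which moved the median of all tested genes to −0.32, gave −1.70 for Fkbp5 and −1.13 for Tsc22d3. It gave 572 higher and 627 lower DEGs in place of 762 and 138, and Rgs2, Klf9, Tgm2 and Slc2a1 were then no DEGs while Sesn1 was a lower one, so that the glucocorticoid-induced list held 9 higher and 3 lower. On effective library sizes Fkbp5 was at 1.97 FPKM at 6 h PCS. Leaving out each library gave 553 to 877 DEGs in place of 900 (lowest without 0 h replicate 1), 8 to 14 in place of 14 among glucocorticoid-induced genes (8 without 0 h replicate 1, 9 without 6 h replicate 2) and 2 to 4 in place of 4 among HIF pathway genes (2 without 6 h replicate 1). The causes were not tested, apart from fewer libraries in each such fit. Same-numbered pools of the time points correlated at 0.004, 0.223 and 0.139 and the labels tie no number to mice, so the pools were not taken as paired by number, which does not show whether they had mice in common. With a replicate block 1050 genes were DEGs, with 14, 4 and 1 in the glucocorticoid-induced, HIF and relatives lists, where Mt1 lost and Lcn2 gained its call. Lcn2, Angptl4 and Glul gained calls with DESeq2 and the exact test (17 DEGs in the glucocorticoid-induced list), Lcn2 and Angptl4 also without robust estimation (16), and Mt1 lost its call without the low-count filter (13). The lower DEGs over all genes were 256 with DESeq2, 250 with the exact test and 257 without the filter. The planned promoter motifs and their relaxed form were not run. With 39 to 75 read pairs per 6 h library for Hif3a, and for Arrdc2 between replicates 1 and 2, counting error limits the order of libraries within 6 h PCS.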
